A study of Mus musculus with 4 samples.

Results

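The interleukins and interleukin receptors examined here are the 82 protein-coding mouse genes whose GENCODE M21 symbol starts with Il and a digit, out of 21951 protein-coding genes. By role they are 39 ligands, 41 receptor chains and 2 other proteins, namely Il18bp, a secreted protein that binds and blocks IL-18, and Il4i1, a secreted L-amino acid oxidase. The rule uses the symbol alone.

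Interleukins are secreted cytokines through which immune and stromal cells signal to one another and to tissue cells. Most bind a private chain together with a chain shared within a family, such as the common gamma chain, gp130 (Il6st) or the IL-1 receptor accessory protein (Il1rap), and signal through JAK and STAT proteins or through MyD88 and NF-kB. In the brain and in glioblastoma, IL-6 and IL-33 are among the interleukins that tumor, glial and immune cells are known to exchange.

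The samples were tumors of mG7080, a mouse glioblastoma line, grown in the brains of Esm1 KO and of WT mice, all C57BL/6, with 2 tumors from each genotype. Esm1 encodes endocan, a proteoglycan secreted mainly by endothelial cells. The injected line was the same in both groups, so the deletion set the hosts apart and not the injected cells, and the comparison asks how the host genotype relates to open chromatin in the tumor. ATAC-seq marks DNA that the Tn5 transposase can reach. The labels describe tumor tissue and the study's methods describe freshly isolated tumor cells. The hosts were young adult mice. In bulk material of this kind, fewer cells of one type and less open chromatin per cell cannot be told apart. Esm1 itself had no peak at its promoter or in its gene body in any of the 4 libraries, so the lists could not check the genotype and KO and WT are used as labelled.

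Peak lists held 82975 and 85418 peaks in KO tumors 1 and 2, against 63000 and 100088 in WT tumors 1 and 2. Each peak's height, the number of read ends piled up at its summit, was recovered from the deposited fold and p-value. The genome background, a measure of relative depth, was 6.03 and 6.71 read ends in KO tumors 1 and 2, against 4.41 and 6.85 in WT tumors 1 and 2. WT tumor 1 was therefore the shallowest library, and the lowest called height there was 2.95 times its background, against 2.34 to 2.49 times in the other 3. Of the defining markers, promoters with a peak in all 4 libraries were found for 5 of 5 neuronal, 5 of 8 glial and glioma, 2 of 8 endothelial and 1 of 14 myeloid genes. No T and NK cell (0 of 10), B cell (0 of 4) or neutrophil and mast cell marker (0 of 7) had a promoter peak in any library. Glial and glioma markers differed within genotypes, as seen after the values were known. Olig2 stood at 4.32 and 10.6 times genome background in KO tumors 1 and 2, against 7.02 and 3.36 in WT tumors 1 and 2. Olig1, Sox2 and Pdgfra were also higher in KO tumor 2 and WT tumor 1, while Nes did not follow. Sox10 had a peak in KO tumor 2 (33 read ends) and WT tumor 1 (29) alone. Gfap, an astrocyte gene, had one in KO tumor 2 alone (69 read ends), and Cd14, a monocyte gene, in both WT tumors alone (19 and 23). The other partly open myeloid markers did not follow Cd14. Aif1 had a peak in both KO tumors (36 and 39) and WT tumor 2 (42). Cd68 had one in KO tumor 1 (42) and WT tumor 2 (57), and Tmem119 in KO tumor 2 alone (28). The part of these markers in the results below was not tested.

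A promoter was called open where at least 1 peak overlapped the 1000 bp on either side of any annotated start. Interleukin promoters were open less often than those of other genes: 25 of 82 (30.5%) had a peak in all 4 libraries, while the share over all protein-coding genes was 60.6%. Receptors were open in all libraries at 16 of 41 genes (39.0%) and ligands at 8 of 39 (20.5%). A peak in at least 1 library was found at 34 members (41.5%), against 67.2% of all protein-coding genes. The number of open interleukin promoters was 30 and 32 in KO tumors, against 27 and 30 in WT tumors. The counts of the genotypes met at 30, and the lowest belonged to WT tumor 1, the library with the fewest peaks. Ligands differed by 1 gene at most between libraries, with 8 and 9 open in KO tumors and 8 and 9 in WT tumors. Receptors had 20 and 21 open promoters in KO tumors, against 18 and 20 in WT tumors.

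**Figure D1:**
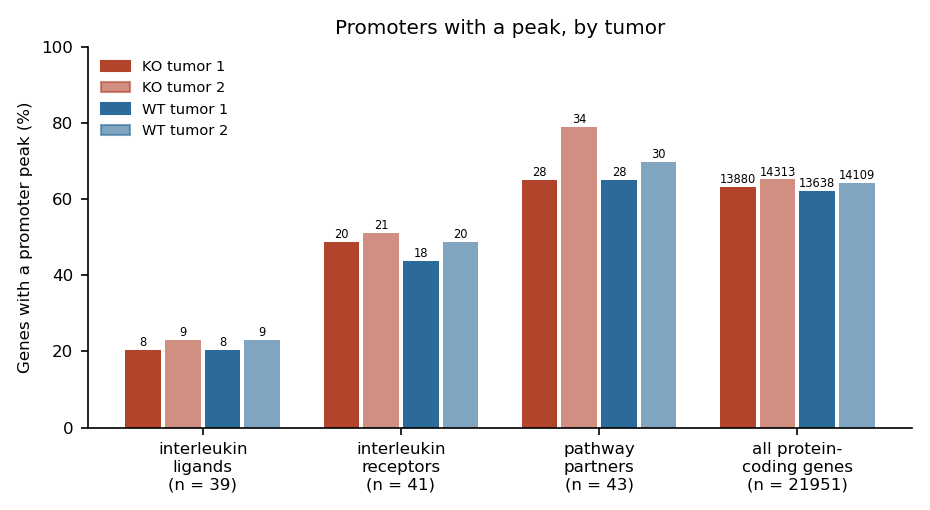
Share of genes with a promoter peak (%, y axis) in KO tumors 1 and 2 and WT tumors 1 and 2 for interleukin ligands, interleukin receptors, 43 pathway partners and all protein-coding genes; the number over each bar is the count of genes. Ligands stand at 20.5% to 23.1% in every library and receptors at 43.9% to 51.2%, both under the 62.1% to 65.2% of all genes.

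The families differed in how many members were open. All 5 open members of the IL-17 family, of 11, were open in every library, as were the 3 of 11 in the IL-10 family. In the IL-1 family 7 of 20 were open throughout, and in the IL-6 and IL-12 family 5 of 16, with 5 more open in some libraries. Among genes of the common gamma chain family, which holds many lymphocyte cytokines and their receptors, 3 of 17 were open in all libraries. The 48 members with no promoter peak in any library comprised 29 ligands and 19 receptors. They included the lymphocyte and myeloid cytokines Il1a, Il1b, Il2, Il4, Il10, Il13, Il17a and Il23a, and the immune receptor chains Il2ra, Il2rb, Il2rg, Il7r and Il1rl1. Other cytokines and receptor chains of immune cells were open in all 4 libraries, among them Il7, Il12b, Il18, Il3ra, Il4ra, Il10ra and Il15ra. Il10ra had 22 and 33 read ends in KO tumors and 26 and 29 in WT tumors. Absence from a list says that no peak passed the caller at this depth, not that the DNA was closed.

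Among ligands, Il17d, an IL-17 family cytokine, had the tallest promoter peak. Its height was 101 and 99 read ends in KO tumors and 66 and 119 in WT tumors, a mean of 16.0 times the genome background. The summits lay 1056 and 1011 bp past the Il17d start in KO tumors and 796 and 977 bp in WT tumors, near the edge of the promoter window. Il18, which induces interferon gamma, followed at 53 and 85 read ends in KO tumors and 49 and 72 in WT tumors, under a peak that also covered the promoter of its neighbour Bco2. For both ligands the genotypes overlapped, also over genome background. Il17b, of the same family as Il17d, had 63 and 52 read ends in KO tumors against 31 and 68 in WT tumors. Il7, a survival factor for lymphocytes, had 45 and 69 in KO tumors against 37 and 55 in WT tumors. Il6, the gp130 cytokine of the acute phase response, had 48 and 50 in KO tumors against 25 and 52 in WT tumors. In these 3 ligands the lowest height was that of WT tumor 1, and over genome background the genotypes overlapped. Il12b, the p40 subunit of IL-12 and IL-23, had 27 and 36 read ends in KO tumors and 28 and 34 in WT tumors. Its summits lay at -1045 to -964 bp from the start, at the edge of the promoter window. The alarmin Il33, released from the nucleus of damaged cells, had the lowest open ligand promoter, with 19 and 34 read ends in KO tumors and 20 and 33 in WT tumors. The genotypes overlapped at both genes.

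Il11 counted as open in all libraries with 36 and 28 read ends in KO tumors and 18 and 36 in WT tumors, but its tallest peaks shared no base across the libraries, and a peak there also covered the promoter of Tmem190. Il33 was the only other open member whose tallest peaks shared no base, with the WT tumor 1 peak at another annotated start, 20755 bp from the farthest of the other summits. At the remaining 23 open promoters the tallest peaks of all 4 libraries overlapped at a common base. Summits lay within 1000 bp of an annotated start in every library at 21 of the 25, the others being Il11, Il12b, Il17d and Il1r2. Open ligand promoters averaged 4.39 to 16.0 times the genome background, with a median of 7.85.

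The tallest receptor promoters were those of Il1rap and Il6st, both chains shared by several cytokines. Other shared chains were lower, with Il10rb and Il4ra below the receptor median of height over background and no promoter peak at Il2rg. Il1rap, the accessory chain through which IL-1, IL-33 and IL-36 receptors signal, reached 87 and 103 read ends in KO tumors and 90 and 96 in WT tumors. Il6st, the gp130 chain of the IL-6 family, reached 88 and 101 in KO tumors and 81 and 108 in WT tumors. Over genome background the KO values of Il1rap lay between the WT values, while at Il6st they were 14.6 and 15.1 in KO tumors against 18.4 and 15.8 in WT tumors, both WT values being the higher. Il3ra, the alpha chain of the IL-3 receptor, had 48 and 101 read ends in KO tumors and 50 and 64 in WT tumors, and its single high value was that of KO tumor 2. The Il3ra peaks shared bases, but the KO tumor 2 summit lay up to 1725 bp from the others, so these heights are not of 1 site. Its local background was 5.76 times that of the genome and its fold ranked at the 9.61 percentile. Il17rd, an inhibitor of FGF signalling, had 56 and 76 in KO tumors against 45 and 56 in WT tumors. Il6ra, the IL-6 binding chain, had 55 and 70 in KO tumors against 44 and 60 in WT tumors. At these 3 genes the genotypes overlapped over background. The decoy receptor Il1r2, which binds IL-1 without signalling, had 51 and 56 read ends in KO tumors and 32 and 60 in WT tumors, with summits 1061 to 1226 bp from the nearest start, so only the edge of the peak reached the promoter window.

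Over all 16 receptors open in every library, the mean height ran from 4.15 times background at Il17rb, whose peak also covered Chdh, to 16.1 times at Il1rap, with a median of 7.11. The median over the 25 open members was 7.71 times background in KO tumors and 7.58 in WT tumors, below the 12.7 and 13.7 of all genes with a peak in every library. Il4i1 had the tallest peak of any member, at 111 and 132 read ends in KO tumors and 90 and 116 in WT tumors, but that peak also lay over the promoters of Atf5 and Nup62.

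**Figure D2:**
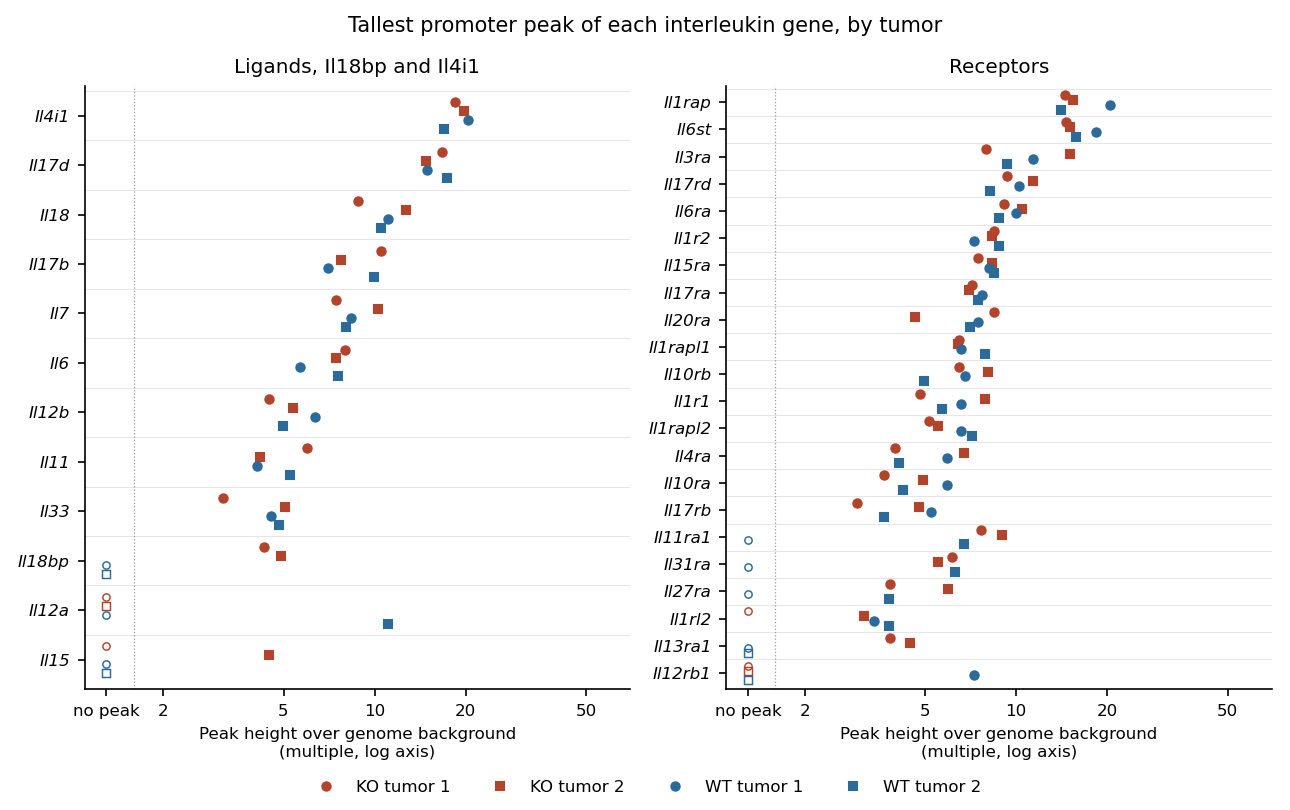
Height of the tallest promoter peak over the genome background of its library (multiple, log axis) for the 34 interleukin genes with a peak in at least 1 library; filled symbols are KO tumors 1 and 2 and WT tumors 1 and 2, and open symbols at the left mark a library with no peak. The shared chains Il1rap and Il6st lie near 16 times background, and only Il13ra1 and Il18bp have peaks in both KO tumors and in no WT tumor.

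Promoters divide into a CpG-rich kind, in which an unmethylated CpG island tends to keep chromatin accessible in many cell types, and a CpG-poor kind that is often specific to a tissue. Of the 25 interleukin promoters open in all libraries 14 were CpG-rich, against 82.7% of all promoters open in all libraries. A start was called CpG-rich where the 250 bp on either side had at least 50% G and C and an observed over expected CpG ratio of at least 0.6. By that measure 16 of 82 members (19.5%) had a CpG-rich start, against 53.5% of all protein-coding genes. The split by role was 13 of 41 receptors and 2 of 39 ligands. CpG-rich members were open in all libraries at 14 of 16 genes (87.5%), where the share among all CpG-rich genes was 93.7%. CpG-poor members were open in all at 11 of 66 (16.7%), where the share among all CpG-poor genes was 22.6%. Within the CpG-poor kind the roles were close, with 6 of 37 ligands (16.2%) and 5 of 28 receptors (17.9%) open in all. Within the CpG-rich kind it was 2 of 2 ligands and 11 of 13 receptors. The CpG-rich members without a peak in every library were Il12rb2, the signalling chain of the IL-12 receptor, which had none, and Il13ra1.

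**Figure D3:**
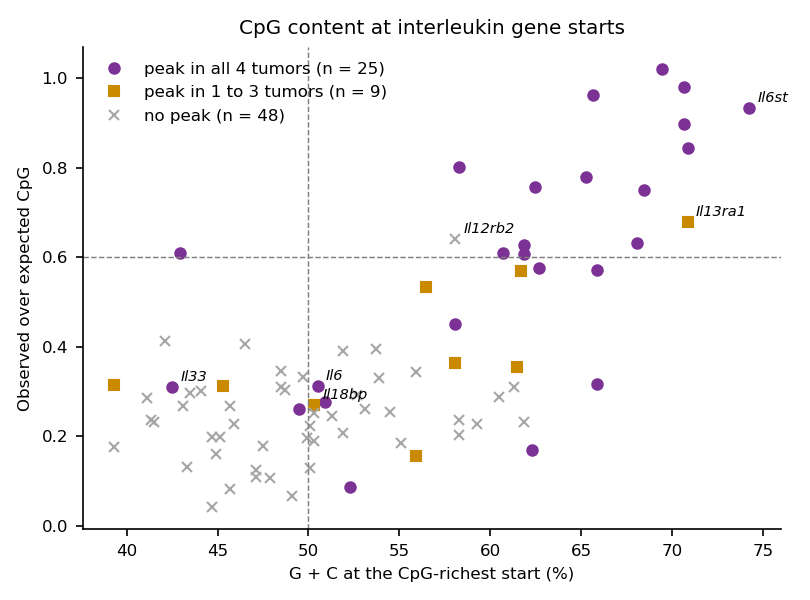
G and C content (%, x axis) and observed over expected CpG (y axis) at the CpG-richest annotated start of each of the 82 interleukin genes, coloured by the number of tumors with a promoter peak; dashed lines are the 50% and 0.6 limits. Of the 16 genes past both limits 14 had a peak in all 4 tumors, while Il12rb2 had none.

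The DNA just upstream of the first annotated start of a CpG-poor ligand and of a CpG-rich receptor shows the contrast. Both stretches are from GRCm38, 5′ to 3′ on the strand of the gene, and capitals mark matches to the motifs searched. For Il6 the stretch is chr5:30012914-30013113 on the plus strand, and for Il6st it is chr13:112463870-112464069 on the plus strand.
Il6: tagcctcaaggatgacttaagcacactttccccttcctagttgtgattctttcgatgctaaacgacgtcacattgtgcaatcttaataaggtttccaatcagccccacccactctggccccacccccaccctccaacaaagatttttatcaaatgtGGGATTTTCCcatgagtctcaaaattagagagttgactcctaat
Il6st: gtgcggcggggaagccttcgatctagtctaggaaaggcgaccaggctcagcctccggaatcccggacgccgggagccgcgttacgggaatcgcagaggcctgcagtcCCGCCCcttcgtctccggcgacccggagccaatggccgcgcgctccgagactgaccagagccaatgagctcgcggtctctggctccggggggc

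The Il6 stretch had 44.0% G and C and 3 CpGs in 200 bases, and the Il6st stretch had 69.5% and 24. In Il6 the capitals mark 1 match to the NF-kB motif (GGGA, any base, then TTTCC) at bases 157 to 166 of the stretch. In Il6st they mark 1 GC box (GGGCGG, here on the opposite strand) at bases 108 to 113. The Il6 stretch lay wholly inside the peaks of both KO tumors and of WT tumor 2, while the peak of WT tumor 1 began 43 bp after its last base. Within 100 bp of the summit of the tallest promoter peak, a GC box was present at 17 of 34 members and at 57.2% of the 14746 genes with a promoter peak in any library. The NF-kB motif was present at none of the 34, which leaves out the Il6 match because it lies farther from the summit, and at 0.237% of all. These matches describe letters in a window and were not tied to any factor.

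Presence of a promoter peak split by genotype at 2 members. A peak in both KO tumors and neither WT tumor was called at Il13ra1 and Il18bp, 2 of the 34 members with any promoter peak, and over all genes with a promoter peak the share was 0.441% (65 of 14746). No member had a peak in both WT tumors and neither KO tumor, where the share over all genes was 0.197%. With 2 tumors against 2, no permutation test of a single gene can pass 0.05, so these are counts and not tests. Without WT tumor 2 the KO-only promoters numbered 5, the others being Il11ra1, Il27ra and Il31ra, and without KO tumor 1 they numbered 3, the other being Il15.

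Il13ra1 encodes the chain that pairs with the IL-4 receptor alpha chain to bind IL-4 and IL-13. Its gene spans chrX:36112110-36171259 on the plus strand. Peaks stood at chrX:36112142-36112429 with 23 read ends in KO tumor 1 and at chrX:36111949-36112732 with 30 in KO tumor 2, and neither WT tumor had a peak. Both were modest peaks, at 3.82 and 4.47 times background and at the 41.1 and 62.9 percentiles of fold in their lists. The lowest heights called in WT tumors 1 and 2 were 13 and 16 read ends, and the part of depth in this call was not tested. The KO-only call stood under every peak threshold and promoter definition tried. Its summits lay 178 and 193 bp past the start, where the first intron begins. That intron stretch, chrX:36112276-36112429 on the plus strand of GRCm38, is shown because the peaks of both KO tumors cover it.
Il13ra1: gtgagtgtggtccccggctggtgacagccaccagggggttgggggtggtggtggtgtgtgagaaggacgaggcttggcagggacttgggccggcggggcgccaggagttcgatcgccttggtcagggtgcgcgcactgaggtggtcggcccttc

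The stretch had 68.8% G and C and 10 CpGs in 154 bases and held none of the motifs searched. The partner chain Il4ra was open in all 4 libraries, with 24 and 45 read ends in KO tumors and 26 and 28 in WT tumors, and the decoy receptor Il13ra2 had no promoter peak. The ligands Il4 and Il13 had none in any library. A region 1011 bp upstream of the Il13 start, just outside the promoter window, had a peak in all 4 libraries. Its heights were 19 and 21 read ends in KO tumors and 15 and 27 in WT tumors.

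Il18bp spans chr7:102014885-102018690 on the minus strand. Its peaks had 26 and 33 read ends in KO tumors 1 and 2, at chr7:102017310-102017947 and chr7:102017092-102017784, and neither WT tumor had a peak. The local background under them was 1.86 and 1.93 times that of the genome, and their folds ranked at the 1.49 and 5.88 percentiles of their lists. This call was lost when the −log10 of q had to reach 5 and when equal numbers of peaks were taken from each library. Its target Il18 had a promoter peak in all 4 libraries, and the IL-18 receptor chains Il18r1 and Il18rap had none.

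The other 7 members with a partial pattern did not follow genotype. Il11ra1, Il27ra and Il31ra had a peak in every library except WT tumor 1, the shallowest. Il27ra, the IL-27 receptor chain, had 23 and 40 read ends in KO tumors and 26 in WT tumor 2. Il31ra had 37 and 37 in KO tumors and 43 in WT tumor 2. The Il31ra summits lay 1145 to 1309 bp from the nearest start, so its peaks met the promoter window by their edges. At both genes WT tumor 2 stood with the KO tumors. Il11ra1 had 46 and 60 in KO tumors and 46 in WT tumor 2, at sites up to 3685 bp apart, and since it has a near-identical copy, Il11ra2, reads may be divided between them. Il1rl2, the IL-36 receptor, lacked a peak in KO tumor 1 alone. Single libraries held a peak at Il15 (KO tumor 2, 30 read ends), Il12a (WT tumor 2, 76) and Il12rb1 (WT tumor 1, 32). The Il12a peak had its summit 2390 bp from the nearest start and met the promoter window by its edge.

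Heights were compared at the 25 members with a peak in all 4 libraries, on a log2 scale centred on each library's median, with limma over all 13310 such promoters. No member passed an adjusted p of 0.05. Over all genes 2 promoters were higher in the libraries labelled KO (0.015%), Myc and Dynlt1b, and 0.0% were lower. Myc had 192 and 223 read ends in the libraries labelled KO, against 64 and 89 in those labelled WT. At an unadjusted p under 0.05 there were 0 members and 3.94% of all promoters. With fold changes seeded into simulated heights at these 13310 promoters, 97.0% of 2-fold and 38.0% of 1.5-fold changes were called. The simulated noise was the same at every promoter, while standard errors of members ran from 0.09 at Il4i1 to 0.32 at Il17rb. These shares therefore do not give the power for the members. Of the 25 members 16 were higher in KO and 9 lower, with a median log2 difference of 0.07, against -0.0049 over all promoters.

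The lowest p in the higher direction belonged to Il10rb, the chain shared by receptors for IL-10, IL-22 and lambda interferons. It had 39 and 54 read ends in KO tumors against 30 and 34 in WT tumors, a log2 difference of 0.42 ± 0.24 (SE, n = 2 each). Its p was 0.104 by limma and 0.998 after adjustment. Il17rd (0.27 ± 0.18), Il4i1 (0.14 ± 0.09), Il6 (0.34 ± 0.25), Il7 (0.20 ± 0.21) and Il6ra (0.17 ± 0.17) followed, all with an adjusted p of 0.998 by limma. The difference was 0.021 at Il6 without WT tumor 1 and 0.00028 at Il7 without KO tumor 2. In the other direction Il1rapl2, an IL-1 receptor family member, had 31 and 37 read ends in KO tumors and 29 and 49 in WT tumors, a log2 difference of -0.26 ± 0.25. Next by p were Il6st at -0.09, Il1rap at -0.08, Il10ra at -0.13, Il33 at -0.12 and Il20ra at -0.10, each smaller than its standard error. After centring, both KO values lay above both WT values at 4 members, and both WT values above both KO values at 2, where the shares over all promoters were 15.0% and 16.2%. Over genome background the balance was reversed, with 0 members in the first class and 4 in the second, against 3.76% and 27.5% of all promoters. Scaling by genome background instead of the median gave 12 of 25 members higher, so the count of directions depended on the scaling. Without KO tumor 1, the single tumor left in that group made Il3ra pass, with an adjusted p of 0.0252 by limma, but 225 of the 13310 promoters passed in that setting.

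**Figure D4:**
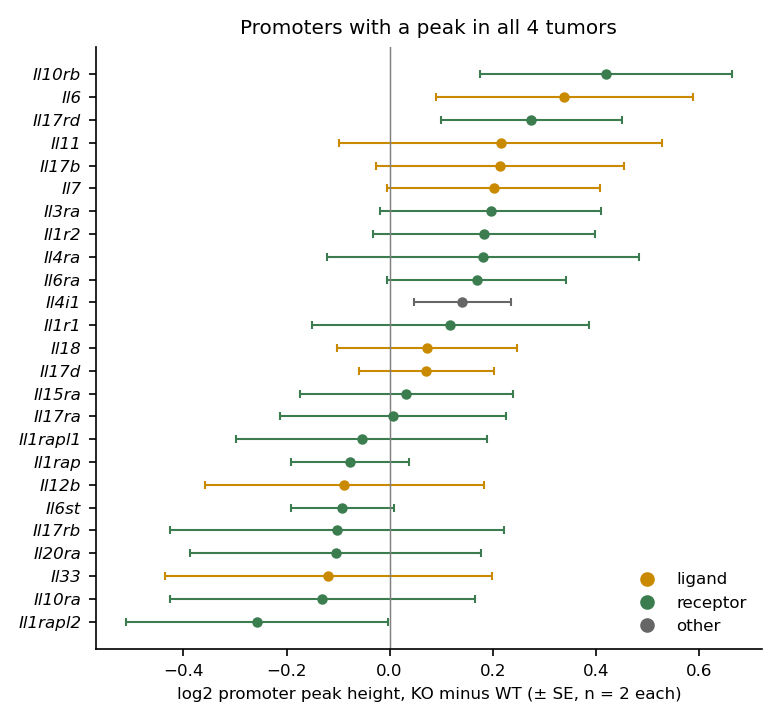
Difference of log2 promoter peak height, KO minus WT (x axis), with its standard error, for the 25 interleukin genes with a peak in all 4 tumors, coloured by role. Il10rb is at the top with 0.42 and Il1rapl2 at the bottom with -0.26, and no gene passed the adjusted threshold.

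The pathway partners, a list of 43 genes, hold the JAK and STAT proteins, SOCS inhibitors, MyD88 and IRAK adaptors and related cytokines and receptors. Of these, 27 of 43 (62.8%) were open in all libraries, near the 60.6% of all protein-coding genes and above the interleukin genes. A further 7 were open in some libraries and 9 in none. None had a peak in both tumors of one genotype only, where the shares over all genes with a promoter peak were 0.441% for KO and 0.197% for WT. None of the 27 passed limma's adjusted threshold in either direction. An unadjusted p under 0.05 by limma was found at 3 of them, and at 3.94% of all promoters. Socs3, an inhibitor of gp130 signalling induced by STAT3, came closest, with 64 and 96 read ends in KO tumors against 33 and 51 in WT tumors and a log2 difference of 0.83 ± 0.19 (SE, n = 2 each). Its p was 0.000362 by limma and 0.482 after adjustment. Both KO tumors stood above both WT tumors there. Socs1, a related inhibitor, had a log2 difference of 0.34 ± 0.14. The lowest p among partners lower in KO belonged to Ifnlr1 at -0.49 ± 0.30, Cntfr at -0.30 ± 0.23 and Stat2 at -0.07 ± 0.10. The 9 partners with no promoter peak in any library were Csf1r, Csf2rb, Csf2rb2, Ebi3, Nlrp3, Osm, Ptpn6, Stat4 and Tslp. Others known mainly from immune cells were open, with Jak3 and Irak3 in all 4 libraries and Casp1 in 2. Clcf1 and Osmr, which belong to the gp130 cytokine system and were named after their values were seen, had a peak in KO tumor 2 alone, with 26 read ends at Clcf1 and 34 at Osmr.

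Distal regions were merged peaks that overlapped no promoter of a protein-coding gene and lay within 20 kb of a start of a member. There were 154, near 61 of the 82 members (74.4%, against 70.9% of all protein-coding genes). Ligands had 77, receptors 69 and Il18bp and Il4i1 together 8. They fell in introns (78), between genes (61), in UTRs (8) and in coding exons (7), and 32 had their nearest start at a gene that is not a member. Of the 48 members with no promoter peak, 37 had at least 1 distal region. The most were near Il16, a CD4 ligand cut from a larger protein, with 7, of which 1 was in all 4 libraries. That region, chr7:83744231-83745611, lay close to the 5′ end of the annotated gene span at 83745726. With the comprehensive GENCODE M21 transcript set Il16 had a promoter peak in both KO and both WT tumors. Il11ra1, Il11ra2, Il17b, Il17ra and Il18bp had 6 each, 3 of them in all libraries. A region counted for Il17b, chr18:61684848-61685323, covered the 5′ end of that gene's annotated span at 61684887. Distal here therefore means away from the starts used, and not away from every annotated start.

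A peak in all 4 libraries was found at 59 of the 154 regions (38.3%), where the share of all distal regions within 20 kb of a gene was 34.6%. Regions numbered 105 and 110 in KO tumors, against 78 and 119 in WT tumors. The genotypes overlapped, with both the lowest and the highest count in WT. Of the 44 regions seen in a single library, 6 and 20 were in KO tumors 1 and 2, against 3 and 15 in WT tumors 1 and 2. The tallest region, named after its values were seen, lay in an intron of Il31ra, 2.09 kb past the start, with 86 and 89 read ends in KO tumors and 89 and 95 in WT tumors.

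Regions split by genotype were 2 in both KO and no WT tumor, where the share over all such regions was 1.73%, and 3 in both WT and no KO tumor, where it was 1.6%. The 2 KO-only regions make 1.3% of the 154 and the 3 WT-only regions 1.95%, near those shares. In KO tumors 1 and 2 the first, in an intron of Il22ra1, the IL-22 receptor, had 22 and 25 read ends at chr4:135730182-135730556. The other, at chr7:4796035-4796343, had 35 and 41, in an intron of Ube2s 13.2 kb upstream of Il11 and nearer to Rpl28. Its folds ranked at the 5.27 and 2.58 percentiles of their lists. Of the WT-only regions, that at chr1:130894500-130894853, between the related cytokine genes Il20 and Il24, had 13 and 27 read ends in WT tumors 1 and 2. A height of 13 is the lowest called in WT tumor 1. That at chr7:102011266-102012112 had 24 and 36 in WT tumors 1 and 2. It lay in an intron of Numa1, 6.04 kb past a start of Il18bp, whose promoter had its peaks in KO tumors only. The third, at chr4:42670812-42671310 upstream of Il11ra2, had 25 and 39 in WT tumors 1 and 2 and is uncertain because it lies near the copied Il11ra genes. Without WT tumor 2 the KO-only regions numbered 23, without KO tumor 1 they numbered 22 and without KO tumor 2 they numbered 8. WT-only regions numbered 18 without WT tumor 1, 11 without KO tumor 1 and 6 without WT tumor 2.

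The centres of 4 of these regions are shown because they are the places where presence followed genotype. Each is 151 bases of GRCm38 around the summit of its tallest peak, on the plus strand, with capitals at motif matches. The stretches are chr4:135730335-135730485 near Il22ra1 and chr7:4796144-4796294 near Il11, both KO-only, then chr1:130894644-130894794 near Il20 and Il24 and chr7:102011340-102011490 near Il18bp, both WT-only.
Il22ra1 region: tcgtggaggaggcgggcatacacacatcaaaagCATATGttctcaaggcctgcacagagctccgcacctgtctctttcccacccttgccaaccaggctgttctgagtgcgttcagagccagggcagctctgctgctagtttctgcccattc
Il11 region: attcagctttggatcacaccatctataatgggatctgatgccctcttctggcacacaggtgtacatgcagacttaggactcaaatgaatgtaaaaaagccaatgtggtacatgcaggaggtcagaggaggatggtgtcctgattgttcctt
Il20 and Il24 region: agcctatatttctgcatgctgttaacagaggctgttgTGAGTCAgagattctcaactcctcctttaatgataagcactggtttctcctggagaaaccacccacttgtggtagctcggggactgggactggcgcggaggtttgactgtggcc
Il18bp region: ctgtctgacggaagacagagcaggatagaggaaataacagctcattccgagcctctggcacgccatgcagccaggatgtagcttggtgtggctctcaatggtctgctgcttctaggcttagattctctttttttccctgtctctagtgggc

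The capitals mark 1 E-box of the form CATATG in the Il22ra1 region and 1 AP-1 motif (TGANTCA) in the Il20 and Il24 region. The remaining pair held no match to the 9 motifs searched on both strands, which besides those named were STAT (TTCNNNGAA), IRF (GAAA, any 2 bases, then GAAA), ETS (CCGGAAGT), SOX (ACAATGG) and CRE (TGACGTCA). Within 100 bp of the summit, the AP-1 motif was present in 18 of the 154 regions (11.7%) and in 11.9% of all 30920 distal regions near genes. CATATG was present in 6 (3.9%), against 5.16% of all. The STAT motif was present in 11 (7.14%) and in 6.18% of all, and the NF-kB motif in 2 (1.3%) and 0.252% of all. Matches to different motifs may overlap, and those printed do not.

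Heights at the 59 regions in all libraries were compared with limma over all 48089 merged regions in all libraries, and no region near a member passed the adjusted threshold. Over all regions 0.0374% were higher in KO and 0.00208% lower. At an unadjusted p under 0.05 there were 3 near members, and 3.08% of all regions. These 3, named after their values were seen, were all higher in KO. The region 16.2 kb past the start of Il5 had 38 and 52 read ends in KO tumors against 17 and 35 in WT tumors, a log2 difference of 0.75 ± 0.27 (SE, n = 2 each). Its p was 0.00567 by limma and 1.0 after adjustment. A region in an intron of Il15ra, the chain that presents IL-15, had 31 and 40 read ends in KO tumors against 16 and 28 in WT tumors (0.62 ± 0.27). A region in an intron of Il17d had 30 and 52 in KO tumors against 23 and 27 in WT tumors (0.55 ± 0.27). Over genome background both KO values stayed above both WT values at the first and the second of these, while at the Il17d region KO tumor 1 was at 4.98 and KO tumor 2 at 7.75, against 5.21 in WT tumor 1 and 3.94 in WT tumor 2.

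**Figure D5:**
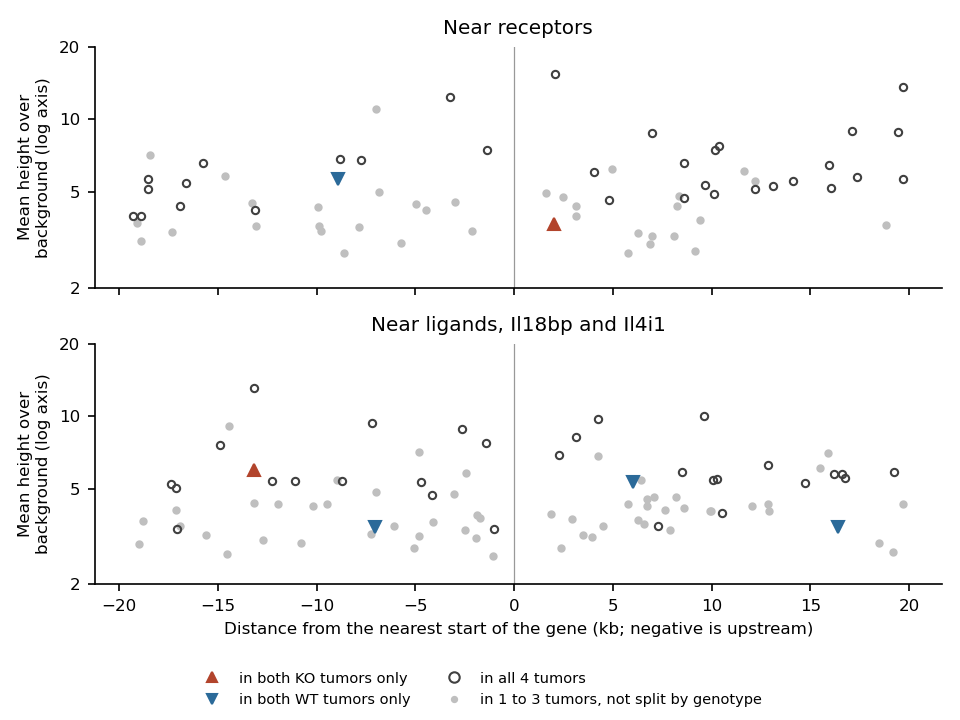
Distal regions near interleukin genes by distance from the nearest start of the gene (kb, x axis, upstream negative) and mean height over genome background in the libraries with a peak (log y axis), near receptors in the upper panel and near ligands, Il18bp and Il4i1 in the lower one; a region near more than 1 gene is drawn once for each. Triangles mark the 2 KO-only and 3 WT-only regions, of which that between Il20 and Il24 appears at both distances, among 59 regions found in all 4 tumors.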

How the data were processed

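ATAC-seq was done on 4 mG7080 tumors, 2 from Esm1 KO and 2 from WT mice, grouped by title. The authors deposited 1 narrowPeak list per library, with a score, a fold (ratio) over local background, the −log10 of p and q, and the summit offset of each peak. The processing notes name MACS2, HOMER and mm10 without versions, while the study's methods describe Genrich. The columns follow MACS2 arithmetic, by which whole heights were recovered within 0.001 for all but 2 of 331481 peaks. The genome background is the lowest local background of a library. The files give no read counts. A transposase shift of reads was not given in the sources used here.

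Promoters were 1000 bp either side of 41538 starts of GENCODE M21 basic transcripts. Peaks sharing 1 bp were merged into regions. KO-only means a peak in both KO and no WT library. Heights were compared with limma 3.58.1 in R 4.3.3 (mean-variance trend, two-sided, Benjamini-Hochberg adjustment over all promoters or regions), in Python 3.11.15 with pandas 2.3.3. Only features with a peak in all 4 libraries enter, so loss of a peak is not tested. With limma each variance is drawn toward a trend with mean height over all features. The p-values and standard errors thus rest on the typical spread at that height, and not only on the 2 tumors per group. At distal regions the trend dominated. The standard error was 0.2714 at a region near Il17b with 32 and 34 read ends in KO tumors. It was also 0.2714 at the Il17d region with 30 and 52. The functions were tested on simulated data. Sequences were read from the RefSeq GRCm38.p6 assembly.

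Members and lists were chosen with earlier results of these data known. Named were members with a genotype-split or partial promoter, the 6 lowest limma p in each direction, the 6 tallest ligand and receptor promoters, split distal regions, the 6 members with the most distal regions, and, of the partners, the 3 lowest p in each direction, some of which are not reported here. Alternatives were other peak thresholds, windows, scalings, a replicate block and leaving out each tumor. The transcript set and a crossed block were added after the data were seen.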

Additional observations from a re-analysis of the deposited data

How the results depend on the processing

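With peaks of −log10 q of at least 5, KO-only promoters fell to 1, Il13ra1, and KO-only distal regions to 0, while the 3 WT-only distal regions found then included 0 of the original 3. Il18bp had no promoter peak in any library under that threshold or when every library gave the same number of peaks. That second setting gave 1 WT-only promoter, Il1rl2, and 4 KO-only distal regions. KO-only distal regions were 1 within 10 kb, 4 within 50 kb and 1 where the nearest start had to belong to the member, and WT-only regions were 6 within 50 kb. Leaving out 1 tumor at a time gave 2 to 5 KO-only promoters, highest without WT tumor 2, and 0 to 1 WT-only promoters, with Il1rl2 called without KO tumor 2, Il12a without WT tumor 1 and Il12rb1 without WT tumor 2. It gave 2 to 23 KO-only distal regions (22 without KO tumor 1, 8 without KO tumor 2, 23 without WT tumor 2) and 4 to 18 WT-only ones (11 without KO tumor 1, 18 without WT tumor 1, 6 without WT tumor 2). Promoters open in all 4 libraries numbered 20 to 30 across thresholds and windows. With the comprehensive transcript set they numbered 28, the added members being Il12a, Il16 and Il20rb. Member promoters past the limma threshold were 0 to 1 with 1 tumor left out, the 1 being Il3ra without KO tumor 1, a setting in which 225 of 13310 promoters passed and the lone KO tumor is assumed to vary like the other group.

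Deviations of same-numbered tumors from their group means correlated at -0.20. With 2 tumors per group the deviations mirror each other. Matching each tumor with the other number therefore gives the same size with a positive sign. Whether the tumors are paired cannot be told from this value. With a replicate block 0 member promoters and 0 member regions were called, and the crossed replicate block also called 0, against 12 and 35 promoters over all genes. Scaling by genome background moved the median of all promoters to -0.11 and of members to -0.03 on the log2 scale. Log2 differences that turned positive with 1 tumor left out were Il1rap, Il10ra, Il33 and Il20ra, with ranges of -0.24 to 0.087, -0.32 to 0.055, -0.43 to 0.19 and -0.57 to 0.36 in that order. The lowest called heights were 2.34 to 2.95 times the genome background, and presence below that was not detectable.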
